A study of Homo sapiens with 4 samples.

Results

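Aminoacyl-tRNA synthetases are the enzymes that join each amino acid to its tRNA, and they were examined here as a family of 38 genes among the 20263 genes of a count table from HCT116 cells. The family was picked by gene name: 19 enzymes that act in the cytosol, 16 that act in mitochondria and 3 scaffold proteins (AIMP1, AIMP2 and EEF1E1). All 38 were found by their current symbol, and all 38 had enough counts to be tested. The family was taken up because earlier results of this same comparison, among them a higher level of MARS1, were known. Fold changes and calls of its members therefore describe these libraries and are not used as support for anything else.

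HCT116 is an established human line of colon cancer cells. It was kept for 24 h, in medium with 10% fetal bovine serum and antibiotics, either with DMSO (2 libraries) or with N_12 (2 libraries), which the series title presents as a derivative of the kinase inhibitor nilotinib. The treatment field of the N_12 samples carries another compound code, HJJ_3_5, and the labels used here give no dose. Total counts ran from 29769568 to 41717938 per library. Of 7 epithelial markers, 6 stood at 10 CPM (counts scaled to library size) or more in every library, and 14 of 17 markers of fibroblasts, leukocytes and endothelium stayed under 1 CPM in every library. Among these 17 the exceptions were COL1A1 and CD68, each above 10 CPM in every library, and VWF at 0.593 to 1.74 CPM. Since RNA was pooled over all cells of a culture, a change in the share of cells and a change in RNA per cell cannot be told apart.

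As background, each enzyme recognises 1 amino acid and its tRNAs, and the cell needs a set for the cytosol and a set for mitochondria. Most mitochondrial enzymes come from separate nuclear genes, whereas GARS1 and KARS1 each serve both compartments. EPRS1 is a fused enzyme that charges tRNAs with glutamate and with proline. A group of cytosolic enzymes sits in the multi-tRNA synthetase complex on the scaffold proteins. When uncharged tRNA builds up, the kinase GCN2 (gene EIF2AK4) slows translation and lets the transcription factor ATF4 be made, and ATF4 is known to raise transcription of many cytosolic synthetase genes through a composite C/EBP-ATF element, TGATGNAA.

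That element was looked for because it can be read without the expression values, although it was chosen with earlier results of this comparison known. Promoter windows from RefSeq (GRCh38.p14, 250 bases before to 50 after the start of transcription) were at hand for 16 cytosolic, 14 mitochondrial and 3 scaffold genes. LARS1, VARS1, YARS1, AARS2 and VARS2 had no entry. TGATGNAA, searched on both strands, was present for 7 of 16 cytosolic genes (43.8%), 1 of 14 mitochondrial genes (7.14%) and 0 of 3 scaffold genes, against 3.63% of the 15272 genes of the count table with a window and 4.46% of all 27305 genes with one. Genes with several annotated starts counted once. The matches are printed below 5′ to 3′ on the strand that carries the element, 30 bases each, with the element in capitals; positions are counted from the start of transcription, with the first transcribed base as 1.
AARS1, chr16:70289675-70289704, plus strand: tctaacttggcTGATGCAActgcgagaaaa
CARS1, chr11:3057407-3057436, plus strand: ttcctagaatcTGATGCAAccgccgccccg
GARS1, chr7:30594834-30594863, minus strand: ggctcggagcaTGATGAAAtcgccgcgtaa
IARS1, chr9:92293692-92293721, plus strand: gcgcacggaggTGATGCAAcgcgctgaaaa
MARS1, chr12:57488053-57488082, minus strand: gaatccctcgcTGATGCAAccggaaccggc
NARS1, chr18:57621804-57621833, minus strand: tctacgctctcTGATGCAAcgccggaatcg
TARS1, chr5:33440956-33440985, minus strand: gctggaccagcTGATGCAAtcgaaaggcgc
YARS2, chr12:32756076-32756105, minus strand: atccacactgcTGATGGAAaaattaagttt

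Of the 7 cytosolic matches, 6 read TGATGCAA and that of GARS1 reads TGATGAAA. The matches of IARS1 (bases -13 to -6), MARS1 (-4 to 4), CARS1 (-2 to 6), TARS1 (3 to 10), NARS1 (15 to 22) and GARS1 (-33 to -26) lie close to the start of transcription, and that of AARS1 lies further upstream (-187 to -180). The mitochondrial match, in YARS2, reads TGATGGAA and lies at -197 to -190. A second motif, the E-box CACGTG, which is bound by MYC and related factors and shares no bases with these matches, was present in 1 of 16 cytosolic, 3 of 14 mitochondrial (CARS2, EARS2 and MARS2) and 1 of 3 scaffold windows (AIMP2), and in 11.0% of genes of the count table. IARS1 holds both motifs, so its 200 bases before the start are printed on the strand of the gene (chr9:92293698-92293897, minus strand), with the E-box and the element (as its reverse complement, TTGCATCA) in capitals.
IARS1: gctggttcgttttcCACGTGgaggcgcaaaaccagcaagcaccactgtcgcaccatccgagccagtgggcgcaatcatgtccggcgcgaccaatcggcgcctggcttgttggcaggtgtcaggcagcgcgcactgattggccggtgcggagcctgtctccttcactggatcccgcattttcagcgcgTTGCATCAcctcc

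A match describes these letters only, and binding was not measured in these samples. A window without a match says nothing about elements elsewhere in the gene.

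In DMSO, cytosolic synthetase transcripts were in most cases more abundant than mitochondrial ones. Levels are given as RPKM, which is CPM divided by exon length in kilobases (exon length from GENCODE release 29), the scale on which genes can be compared. The median over the 19 cytosolic genes was 24.3 RPKM (range 8.94 to 78.3), over the 16 mitochondrial genes 6.002 RPKM (1.77 to 35.0) and over the 3 scaffold genes 8.97 RPKM (6.17 to 12.3). AARS1, the alanine enzyme, stood highest at 78.3 ± 3.57 RPKM (SD, n = 2), followed by GARS1 at 49.5 ± 4.60 and the glutamine enzyme QARS1 at 49.5 ± 5.24, which did not differ beyond their spread. FARS2, the mitochondrial phenylalanine enzyme, was lowest at 1.77 ± 0.0521 RPKM. The mitochondrial isoleucine enzyme IARS2 was the exception among its kind, at 35.0 ± 6.02 RPKM against 19.9 ± 4.14 RPKM for IARS1. Of 13 amino acids with 1 gene per compartment, the cytosolic gene had the higher mean for 11 (IARS and HARS were the others), and the ratio ran from 0.57 for isoleucine to 17.3 for alanine, with a median of 3.56.

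**Figure D1:**
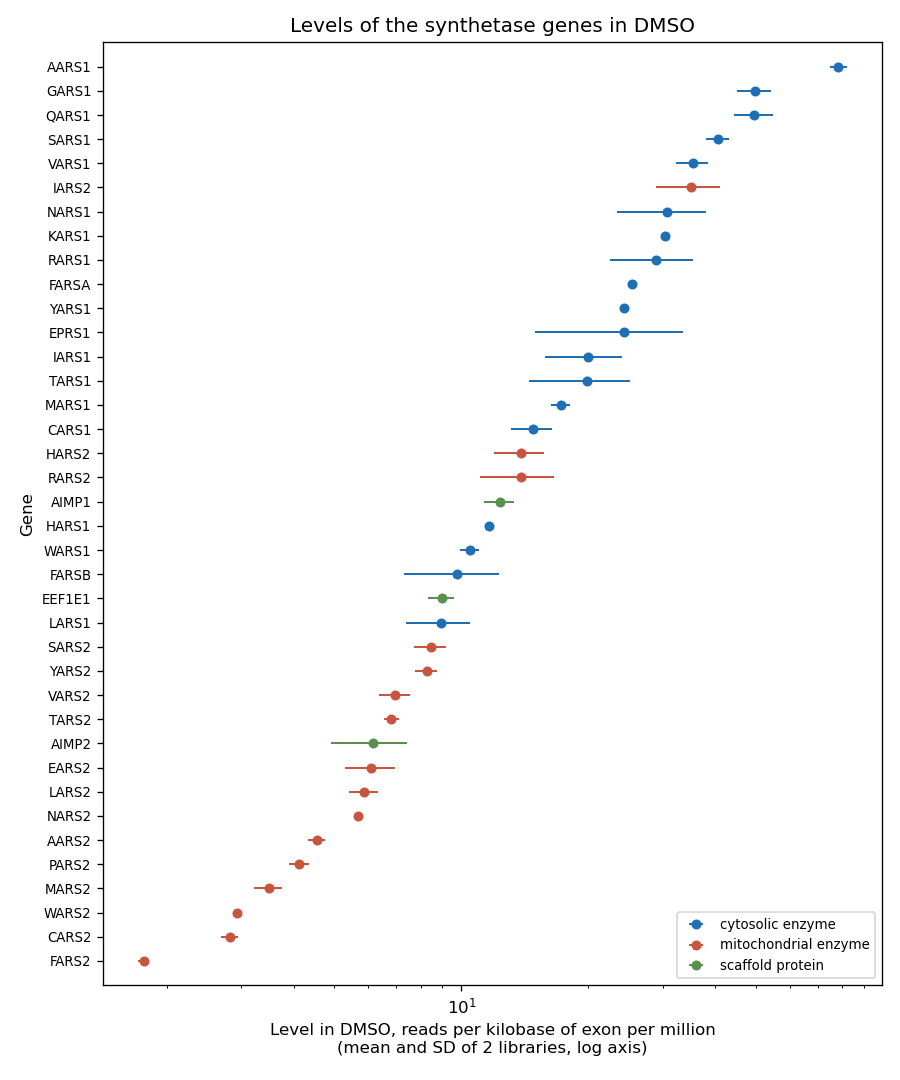
Level of each gene in DMSO in RPKM (log axis), with points for the mean and bars for the SD of 2 libraries, coloured by compartment. AARS1 stands at 78.3 RPKM and FARS2 at 1.77 RPKM, and IARS2 (35.0 RPKM) is the mitochondrial enzyme that lies among the abundant cytosolic ones.

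The comparison of N_12 with DMSO asks how the transcripts of the family differed after 24 h. Members were read from a fit over all 14105 tested genes by edgeR's quasi-likelihood test, with a Benjamini-Hochberg adjusted p of 0.05 as the threshold for a call. IARS1 and MARS1 rose, 2 of 19 cytosolic enzymes, and none of the 38 genes fell. Among all tested genes 2.25% were called, 0.822% as higher and 1.43% as lower; because the family was taken up with this comparison known, nothing is read from the share of members called. At an unadjusted p of 0.05, 12 cytosolic enzymes were higher and 1 was lower, against 11.0% and 10.8% of all genes. On the log2 scale the cytosolic enzymes had a median fold change of 0.53 (range -0.44 to 1.12), with 17 of 19 above 0. The mitochondrial enzymes had a median of 0.02 (-0.52 to 0.52), with 8 of 16 above 0, and all tested genes had a median of 0.01, with 51.0% above 0. Other tools called more or fewer members, all of them cytosolic and higher: DESeq2 9, where 8.68% of all genes were called (3.91% higher, 4.78% lower), and limma-voom 1, where 0.929% were called (0.333% higher, 0.596% lower). With the replicate number as a block edgeR called 8, where 6.83% of all genes were called (3.11% higher, 3.72% lower). With offsets for GC content and length it called 7, where 6.26% were called (2.76% higher, 3.50% lower).

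**Figure D2:**
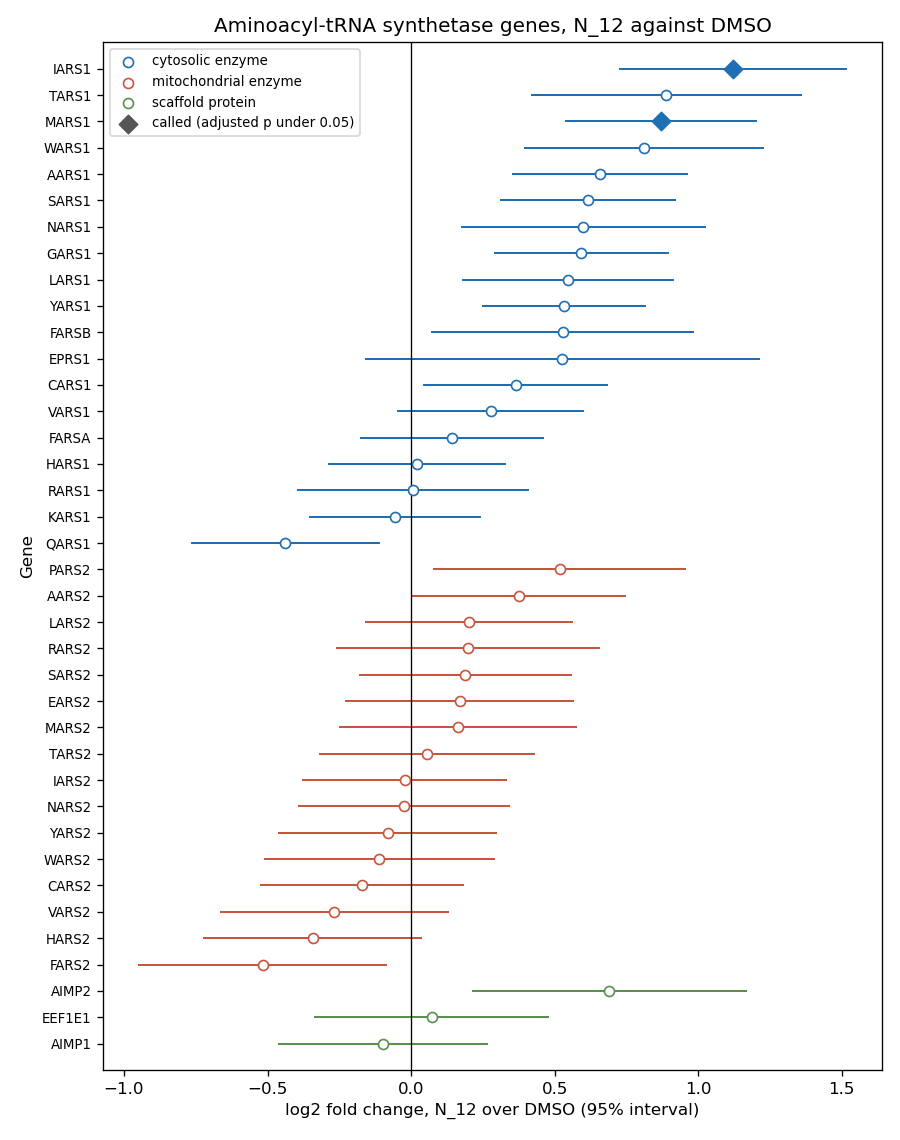
Log2 fold change of N_12 over DMSO for the 38 genes, with 95% intervals from the fit over all genes; filled diamonds mark calls at an adjusted p under 0.05. Cytosolic enzymes lie between -0.44 (QARS1) and 1.12 (IARS1), with IARS1 and MARS1 called, and mitochondrial enzymes between -0.52 (FARS2) and 0.52 (PARS2), with none called.

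IARS1, the cytosolic isoleucine enzyme, stood at 126 and 169 CPM in DMSO replicates 1 and 2 and at 302 and 339 CPM in N_12 replicates 1 and 2. Both N_12 libraries were above both DMSO libraries, and the difference was larger than the gap within either group. It rose 2.17-fold (log2 fold change 1.12, SE 0.17, edgeR adjusted p = 0.0235). MARS1, which charges both the initiator and the elongator tRNA with methionine, stood at 125 and 117 CPM in DMSO and at 201 and 241 CPM in N_12. Its groups did not overlap either, and it rose 1.83-fold (log2 fold change 0.87, SE 0.14, edgeR adjusted p = 0.0285). The call of IARS1 ended without either N_12 library (adjusted p = 0.158 and 0.187, log2 fold change 1.18 and 1.03), as did that of MARS1 (0.124 and 0.150, log2 fold change 0.98 and 0.73); in those fits no gene of the table was called. Without DMSO replicate 2 the call of MARS1 ended as well (adjusted p = 0.0598). On the opposite strand, exons of ARHGAP9 and of the stress gene DDIT3 share 12.4% of the exon bases of MARS1, and the strand setting of the counting is not given in the sources used here, so reads there cannot be told apart; DDIT3 itself had a log2 fold change of -0.84.

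The next cytosolic enzymes were above 0 but missed the threshold over all genes. The threonine enzyme TARS1 stood at 91.6 and 135 CPM in DMSO and at 225 and 194 CPM in N_12 (log2 fold change 0.89, SE 0.20, edgeR adjusted p = 0.0710). The tryptophan enzyme WARS1 stood at 64.0 and 69.0 CPM and then at 136 and 97.7 CPM (0.81, SE 0.18, edgeR adjusted p = 0.0640). For WARS1 the N_12 libraries were further apart than for MARS1, while for TARS1 the spread was in both groups. AARS1 had 364 and 341 CPM in DMSO and 518 and 593 CPM in N_12, with non-overlapping groups and an adjusted p just over the threshold (0.66, SE 0.13, edgeR adjusted p = 0.0506). The serine enzyme SARS1 (0.62), the asparagine enzyme NARS1 (0.60), GARS1 (0.59), the leucine enzyme LARS1 (0.55) and the tyrosine enzyme YARS1 (0.53) followed on the log2 scale. FARSB, the beta subunit of the phenylalanine enzyme (0.53), EPRS1 (0.53), the cysteine enzyme CARS1 (0.36), the valine enzyme VARS1 (0.28) and FARSA, the alpha subunit of the phenylalanine enzyme (0.14), came after them. In each of these 10 genes both N_12 libraries were above both DMSO libraries, an arrangement that 27.9% of all tested genes showed. Their edgeR adjusted p ran from 0.0597 for SARS1 to 0.589 for FARSA.

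The remaining cytosolic enzymes did not share this pattern. The histidine enzyme HARS1 (0.02), the arginine enzyme RARS1 (0.01) and the lysine enzyme KARS1 (-0.06) had overlapping groups and log2 fold changes near 0, with 95% intervals of -0.29 to 0.33, -0.40 to 0.41 and -0.35 to 0.24. QARS1 lay on the other side. It stood at 250.5 and 216 CPM in DMSO and at 162 and 182 CPM in N_12 (log2 fold change -0.44, SE 0.14, interval -0.77 to -0.11, edgeR adjusted p = 0.138), and both N_12 libraries were below both DMSO libraries.

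**Figure D3:**
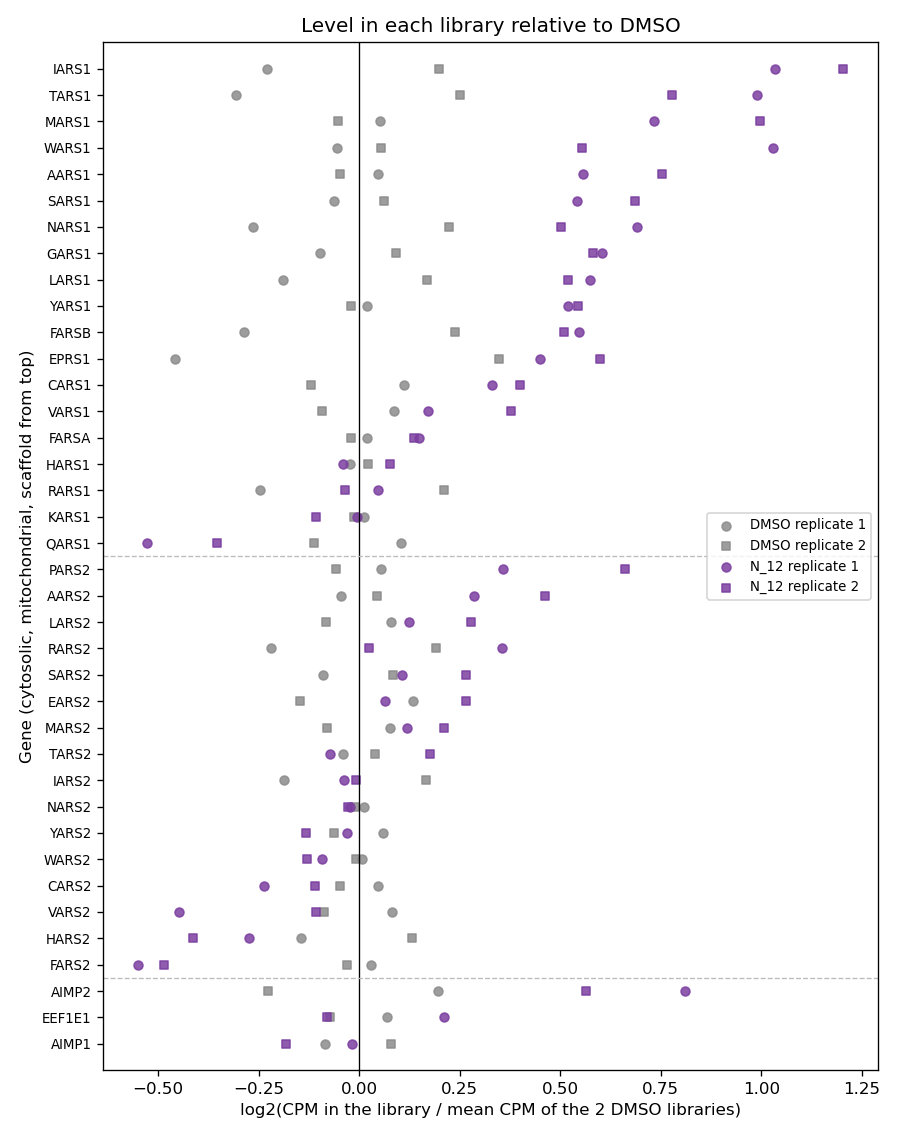
Level of each gene in each library, as log2 of its CPM over the mean CPM of the 2 DMSO libraries; circles are replicate 1 and squares replicate 2, grey for DMSO and purple for N_12. For 15 of 19 cytosolic enzymes both N_12 points lie to the right of both DMSO points (27.9% of all tested genes), and for QARS1 both lie to the left (26.8% of all tested genes).

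A grouping by textbook knowledge set 13 cytosolic enzymes commonly listed as ATF4 targets (AARS1, CARS1, EPRS1, GARS1, IARS1, LARS1, MARS1, NARS1, SARS1, TARS1, VARS1, WARS1 and YARS1) beside the other 6 (FARSA, FARSB, HARS1, KARS1, QARS1 and RARS1). It was made with earlier results of this comparison known and was not drawn from a published list. The values of the 2 groups therefore describe these libraries only, and a role of ATF4 was not tested. The 13 had log2 fold changes of 0.28 to 1.12 (median 0.60), and in all 13 both N_12 libraries were above both DMSO libraries, as in 27.9% of all tested genes. The other 6 ranged from -0.44 to 0.53 (median 0.01), with both N_12 libraries above in 2 and below in 1, where 26.8% of all tested genes had them below. The 7 cytosolic genes whose windows hold TGATGNAA belong to the 13, and both called genes, IARS1 and MARS1, are among these 7. Their median log2 fold change was 0.66 (0.36 to 1.12), that of the 9 with a window but no match was 0.14 (-0.44 to 0.81), and no test was made of this difference. YARS2, the mitochondrial gene with a match, had a log2 fold change of -0.08. The motif and the list of 13 are not independent, since TGATGNAA is the element through which ATF4 is known to act.

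Place in the multi-tRNA synthetase complex did not follow the same line. The 7 enzymes of the complex in this list (EPRS1, IARS1, LARS1, QARS1, MARS1, KARS1 and RARS1) had a median log2 fold change of 0.53, and they include both the highest (IARS1, 1.12) and the lowest (QARS1, -0.44) of the cytosolic enzymes. The 12 outside the complex had a median of 0.56 (0.02 to 0.89). By catalytic fold, class I enzymes had a median of 0.53 and class II enzymes of 0.56, with EPRS1, which carries a domain of each, counted in both. Among the scaffold proteins AIMP2 stood at 13.0 and 9.69 CPM in DMSO and at 19.9 and 16.8 CPM in N_12 (0.69, SE 0.21, edgeR adjusted p = 0.118). AIMP1 had 38.7 and 43.4 CPM and then 40.5 and 36.2 CPM (-0.10, SE 0.16, edgeR adjusted p = 0.762), and EEF1E1 had 19.8 and 18.0 CPM and then 21.9 and 17.9 CPM (0.07, SE 0.18, edgeR adjusted p = 0.850). AIMP2 was thus the 1 scaffold gene whose groups did not overlap; 28.9% of its exon bases lie on exons of EIF2AK1 on the other strand.

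No mitochondrial enzyme was called in any direction, and at an unadjusted p of 0.05 edgeR gave 2 of 16 as higher and 1 as lower, where 11.0% and 10.8% of all genes passed. DESeq2 and limma-voom called none either. Both N_12 libraries were above both DMSO libraries in 5 of the 16 (31.25%), against 27.9% of all tested genes. They were below in 6 (37.5%), against 26.8%, so the separations named below are near those shares. PARS2, the mitochondrial proline enzyme, was highest, at 10.1 and 9.32 CPM in DMSO and 12.4 and 15.3 CPM in N_12 (log2 fold change 0.52, SE 0.19, edgeR adjusted p = 0.176). AARS2, for alanine, stood at 18.9 and 20.1 CPM and then at 23.8 and 26.8 CPM (0.38, SE 0.16, edgeR adjusted p = 0.225), and LARS2, for leucine, at 42.4 and 37.96 CPM and then at 43.8 and 48.7 CPM (0.20, SE 0.16, edgeR adjusted p = 0.485). In all 3 the N_12 libraries were above the DMSO libraries. At the other end FARS2 stood at 8.72 and 8.37 CPM in DMSO and at 5.84 and 6.11 CPM in N_12 (-0.52, SE 0.19, edgeR adjusted p = 0.169), and HARS2, for histidine, at 46.8 and 56.7 CPM and then at 42.8 and 38.8 CPM (-0.34, SE 0.17, edgeR adjusted p = 0.275). Both had N_12 libraries below DMSO libraries. The other 11 (RARS2, SARS2, EARS2, MARS2, TARS2, IARS2, NARS2, YARS2, WARS2, CARS2 and VARS2) lay between -0.27 and 0.20. Exons of SARS2 (46.2%) and VARS2 (22.0%) are shared on the same strand with AC011455.2 and GTF2H4 respectively, so their values depend on how reads were assigned.

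Set side by side by amino acid, the cytosolic gene had the higher log2 fold change for 12 of the 13 amino acids with 1 gene in each compartment, with a median difference of 0.54 (range -0.19 to 1.14). Isoleucine showed the widest gap (IARS1 1.12, IARS2 -0.02), followed by tryptophan (WARS1 0.81, WARS2 -0.11) and threonine (TARS1 0.89, TARS2 0.06). Methionine had 0.87 for MARS1 and 0.16 for MARS2. Arginine went the other way (RARS1 0.01, RARS2 0.20). For phenylalanine, FARSA and FARSB lay at 0.14 and 0.53 against -0.52 for FARS2, and for proline EPRS1 (0.53) and PARS2 (0.52) lay 0.01 apart. These differences carry no test, since genes are not replicates.

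**Figure D4:**
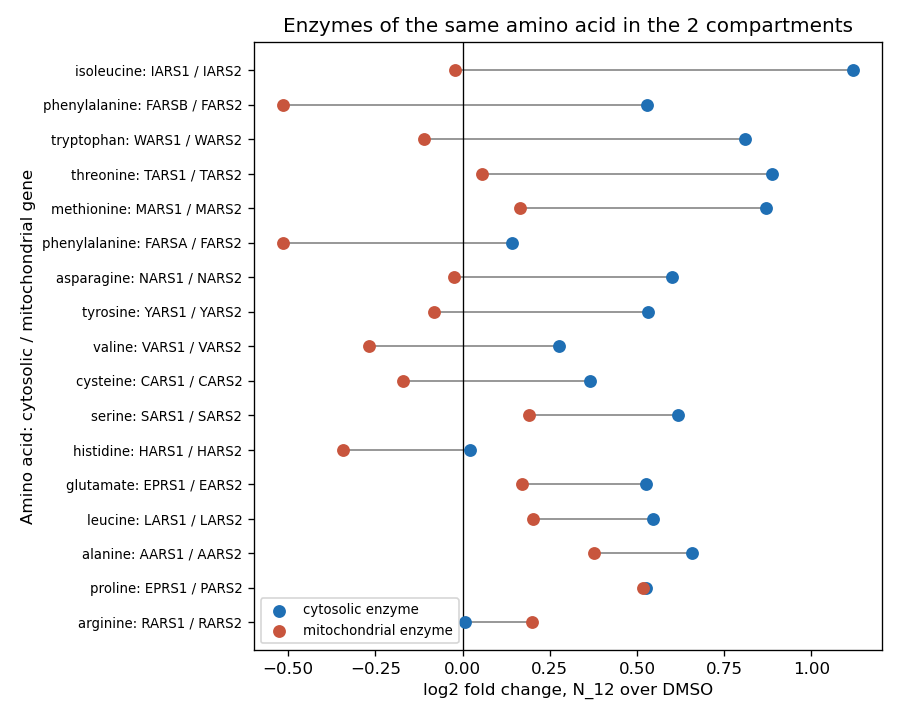
Log2 fold change of N_12 over DMSO for the cytosolic (blue) and the mitochondrial (red) enzyme of each amino acid, joined by a line and ordered by their difference. The gap is widest for isoleucine (1.14), and arginine is the amino acid whose mitochondrial enzyme lies to the right (-0.19).

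The same contrast was seen library by library. Summed over the 19 cytosolic genes, transcripts made up 2604 and 2788 CPM in DMSO and 3718 and 3875 CPM in N_12, a ratio of means of 1.41. Over the 16 mitochondrial genes the sums were 528 and 565 CPM in DMSO and 533 and 562 CPM in N_12, a ratio of 1.001. The median log2 ratio to the DMSO mean, cytosolic less mitochondrial, was -0.08 and 0.07 in the DMSO libraries and 0.57 and 0.51 in the N_12 libraries. The gap of 0.52 between the medians of the fitted fold changes became 0.38 without DMSO replicate 1 and 0.62 without DMSO replicate 2.

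Several members differed between the DMSO libraries. EPRS1, FARSB, IARS1, LARS1, NARS1, RARS1, TARS1, IARS2 and RARS2 were 1.28 to 1.75 times as high in DMSO replicate 2 as in replicate 1, with EPRS1 the furthest apart (96.3 and 168 CPM). The transcripts of these 9 genes hold 41.4% to 44.3% G and C (median 43.2%), and those of the other 29 hold 36.3% to 62.6% (median 51.8%). Across the 38 genes, which share these libraries, Pearson's correlation of GC content with the log2 ratio of the DMSO libraries was -0.52 and Spearman's -0.54; across 14025 genes they were -0.22 and -0.35. With offsets for GC content and length the cytosolic median was 0.51, and 7 cytosolic enzymes were called (AARS1, GARS1, IARS1, MARS1, SARS1, TARS1 and YARS1). EPRS1 moved most among the genes drawn in the leave-out plot, from 0.53 to 0.18 without DMSO replicate 1 and to 0.98, then called (adjusted p = 0.0237), without DMSO replicate 2.

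**Figure D5:**
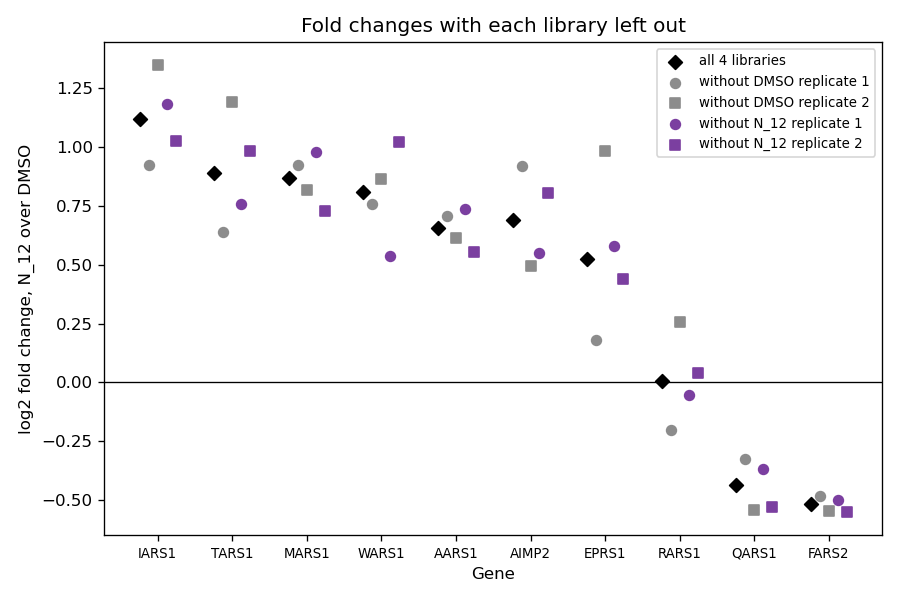
Log2 fold change of N_12 over DMSO for 10 genes from all 4 libraries (black diamonds) and with each library left out (grey for a DMSO library, purple for an N_12 library; circles replicate 1, squares replicate 2). IARS1 lies between 0.92 and 1.35 and FARS2 between -0.55 and -0.48, while EPRS1 runs from 0.18 to 0.98 and RARS1 from -0.20 to 0.25.

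Genes around the family were read from the same fit. Of 17 tested genes of tRNA charging, proofreading and export besides the members, 0 were called by edgeR, where 2.25% of all genes were called. At an unadjusted p of 0.05 edgeR gave 4 higher and 2 lower, against 11.0% and 10.8% of all genes. DESeq2 called 1 higher, where 3.91% of all genes were called higher. XPOT, which exports tRNA from the nucleus, was highest (0.68, SE 0.15, edgeR adjusted p = 0.0647), and SEPSECS, of selenocysteine synthesis, was lowest (-0.48, SE 0.17, edgeR adjusted p = 0.168). Of 15 genes that sense uncharged tRNA or other stress or act below those sensors, 1 was called by edgeR, where 2.25% of all genes were called, and DESeq2 called 2 higher (ATF5 and CEBPB) and 1 lower (DDIT3), with 8.68% of all genes called. The transcription factor ATF5 rose (2.55, SE 0.19, edgeR adjusted p = 0.00201). ATF4 had 631 ± 36.1 CPM with DMSO, against 748 ± 23.9 CPM with N_12 (SD, n = 2; log2 fold change 0.25, edgeR adjusted p = 0.297), EIF2AK4 had 0.45 (edgeR adjusted p = 0.206) and DDIT3 -0.84 (edgeR adjusted p = 0.0789). Of 17 tested ATF4 targets outside the family 3 rose by edgeR, where 0.822% of all genes were called higher. These were the asparagine synthetase ASNS (0.85), the serine synthesis enzyme PSAT1 (1.13) and the pseudokinase TRIB3 (1.19). DESeq2 called 5 higher, these and MTHFD2 and SLC7A11, and 0 lower (3.91% and 4.78% of all genes). CEBPB, MTHFD2 and SLC7A11 are named after their values were seen. The lowest target was ALDH1L2 of folate metabolism (-0.26, edgeR adjusted p = 0.687). The target list was chosen with earlier results known, so nothing is read from these counts.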

How the data were processed

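RNA of 4 libraries (2 DMSO, 2 N_12) was sequenced after a kit for mRNA, from 1.4 ug of total RNA each, per the labels' protocols. The authors deposited whole-number counts per gene, not normalized, under human Ensembl identifiers; for the aligner, the counter and strandedness the entry is "not given in the sources used here", and the builds in the submitters' processing notes (GRCm38, mm10) are of mouse, so no coordinates are tied to the counts. Symbols were known for 20148 of 20263 identifiers.

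In R 4.3.3, edgeR 4.0.16 was run with TMM scaling (factors 0.98 to 1.02), its expression filter, a robust quasi-likelihood fit without a replicate term and Benjamini-Hochberg adjustment over all 14105 tested genes. CPM are TMM-scaled, SE come from the F statistic and intervals are 95%. The procedure was tested on simulated data. Counts of replicates differed far beyond sampling noise (chi-square divided by its degrees of freedom, 36.5 and 57.2). The labels do not say whether replicates are separate cultures, so p-values reflect no more than how far these libraries differ, possibly for technical reasons. DESeq2 1.42.0, limma 3.58.1 and 12 other settings were tried. Members, gene lists, the promoter motif and the rule for naming genes (called members, scaffold proteins, the 5 cytosolic and 3 mitochondrial enzymes with the highest and the 3 enzymes with the lowest fold change in full, the others by level or fold change; of related genes the called, highest and lowest and 6 set ones) were chosen with earlier results of these data known. Many listed genes outside the family are not reported here one by one.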

Additional observations from a re-analysis of the deposited data

How the results depend on the processing

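Over 14 alternatives, 31 of the 38 genes kept the sign of their fold change; the 7 that did not had log2 fold changes within 0.0978 of 0. By setting, the sign changed for HARS1 (-0.041 with GC and length offsets), RARS1 (-0.0025 with DESeq2 size factors or DESeq2 and -0.0016 with a filter of 5 CPM), IARS2 and NARS2 (0.024 and 0.021 with total counts only) and AIMP1 (0.018 with GC and length offsets). With libraries left out the sign also crossed 0: HARS1 ran from -0.045 to 0.061, RARS1 from -0.20 to 0.25, IARS2 from -0.19 to 0.16, TARS2 from -0.078 to 0.16, EEF1E1 from -0.10 to 0.21 and, outside the family, ALDH1L2 from -0.77 to 0.093.

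Calls depended on the method. With the replicate number as a block there were 963 calls over all genes, 8 in the family, all cytosolic, and 9 among related genes; the labels do not say that the numbers pair samples, and same-numbered libraries did not deviate together (correlation -0.09). DESeq2 called 1225, 9 and 11, and GC and length offsets 883, 7 and 10, again with all family calls cytosolic. Limma-voom called 131 over all genes and 1 in the family (IARS1, adjusted p = 0.0499; MARS1 0.0577). Without robust dispersions edgeR called 131 and 0, with 17 family genes at an unadjusted p under 0.05. Leaving out 1 library gave 0 to 451 calls over all genes, 0 to 4 in the family and among cytosolic enzymes, and 0 to 6 among related genes; without either N_12 library there were none, with 2855 and 2763 genes at an unadjusted p under 0.05. The cytosolic median ran from 0.38 to 0.68, the mitochondrial from -0.031 to 0.062 (0.064 with total counts only) and their gap from 0.38 to 0.62; the other settings moved the gap by less than the spread of the libraries. Mitochondrial and scaffold genes had 0 calls in every setting. With 2 libraries a group, intervals such as that of EPRS1 (-0.16 to 1.21) leave wide limits.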

Other observations

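Elongation and mitochondrial translation factors, which take up the charged tRNAs, had no calls by edgeR among 14 tested genes. At an unadjusted p of 0.05 edgeR gave 2 higher and 2 lower, against 11.0% and 10.8% of all genes. DESeq2 called 2 lower, where 4.78% of all genes were called lower. EEF1G, a subunit of the exchange complex that reloads the elongation factor, was lowest, with 2893 ± 242 CPM under DMSO against 2022 ± 86.9 CPM under N_12 (SD, n = 2; log2 fold change -0.52, SE 0.13, edgeR adjusted p = 0.0892). GFM1, a mitochondrial elongation factor, was highest at 26.3 ± 1.38 and 35.5 ± 3.61 CPM (0.43, SE 0.16, edgeR adjusted p = 0.175).

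CLDN4, an epithelial junction gene among the markers, stood at 458 and 24.3 CPM in the DMSO libraries and at 70.6 and 376 CPM in the N_12 libraries, so that DMSO replicate 1 and N_12 replicate 2 were high and the others low. None of the 38 synthetase and scaffold genes differed as much within a group: the widest ratio between DMSO replicates was 1.75, for EPRS1.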
